A study of Mus musculus with 16 samples.

Results

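The 7 lipopolysaccharide sensing genes described here are Lbp, Cd14, Tlr4, Ly96, Tlr2, Myd88 and Irak3. Members were taken by name: a probe belonged to a gene when its accession in the scanner files mapped to that mouse symbol, and the brightest probe stood for the gene. All 7 had a probe, out of 33269 gene names on the array. Messenger RNA was measured on 16 one-colour Agilent arrays of female C57Bl/6 mice in which a liver cirrhosis model had been set up with an atherogenic high-fat diet for 40 weeks, so all groups carry the diet. The 4 groups of 4 arrays each were inflammatory cells from the liver of mice given adipose tissue-derived stem cells (ADSC, numbered 7 to 10), the same fraction from mice given phosphate-buffered saline (PBS, numbered 11 to 14), whole liver after ADSC (7 to 10) and whole liver after PBS (11 to 14). The ADSC came from inguinal fat of mice with a GFP transgene and were expanded in culture. They were given beneath the splenic capsule as 2 injections of 100000 cells, and tissue was collected 2 weeks after the last one. The labels name no animal for an array, so the spread that p-values rest on may be technical. The extraction text of the labels names tumor-infiltrating cells and blood, which leaves unclear by what steps the inflammatory cells were obtained.

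Lipopolysaccharide is the outer coat of Gram-negative bacteria, and blood draining the gut carries traces of it to the liver. Lbp, a plasma protein made by hepatocytes, carries it to Cd14, a co-receptor of monocytes, macrophages and neutrophils, which hands it to the receptor Tlr4 and its partner Ly96 (MD-2). Tlr4 signals through the adaptor Myd88 and kinases to the transcription factor NF-kappaB, Tlr2 senses bacterial lipoproteins and uses the same adaptor, and Irak3 (IRAK-M) is an inhibitor of that kinase step found mainly in myeloid cells.

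Promoters are shown for the receptor that fell after ADSC and for the shared adaptor, because both are genes of NF-kappaB signalling. RefSeq promoter sequences of build GRCm38.p6 matched 3 of the 7 members, Tlr2, Myd88 and Irak3, the last with 2 annotated starts. The 250 bases before the start of Tlr2 (chr3:83841609-83841858, minus strand) and of Myd88 (chr9:119340019-119340268, minus strand) are given 5′ to 3′. Capitals mark the kappaB motif in Tlr2, and in Myd88 the TATA box (TATAAA) and the STAT motif (TTCNNNGAA).
Tlr2: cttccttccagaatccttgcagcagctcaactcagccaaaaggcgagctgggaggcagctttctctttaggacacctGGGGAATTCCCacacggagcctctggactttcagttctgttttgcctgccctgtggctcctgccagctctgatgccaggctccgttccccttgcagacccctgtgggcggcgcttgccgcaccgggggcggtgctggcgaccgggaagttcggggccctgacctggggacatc
Myd88: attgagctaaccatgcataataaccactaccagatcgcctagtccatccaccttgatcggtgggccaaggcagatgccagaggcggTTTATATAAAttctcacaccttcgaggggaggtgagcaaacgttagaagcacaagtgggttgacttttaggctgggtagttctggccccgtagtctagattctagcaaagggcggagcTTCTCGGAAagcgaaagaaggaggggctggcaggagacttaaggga

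Both strands were searched. Tlr2 held 2 overlapping kappaB matches, starting 173 and 172 bases before the annotated start, and a match to this motif lies in 7.25% of the 32851 windows of the same length. Myd88 had no kappaB match in its window, 2 overlapping TATA box matches (12.4% of windows hold one) and 1 STAT match (7.02%). Neither start of Irak3 matched any motif searched, which also included the PU.1 core GAGGAA (23.3% of windows) and the C/EBP motif TTNNGCAA (9.56%). A match is a stretch of letters and no measured binding.

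All levels are log2 processed signal minus the array's 75th percentile, and 0 is the 75th percentile itself. They compare samples for 1 gene and not genes with each other. Between 51.6% and 66.3% of spots were well above background, and 0 were saturated. Tlr2, Tlr4 and Myd88 had 10 spots of their probe on each array, with a median SD between spots of 0.0641 for Tlr2, 0.127 for Tlr4 and 0.0554 for Myd88. The other members had 1 spot per probe. In bulk samples, fewer cells of a type and less RNA per cell cannot be told apart. Some lists of cell type markers followed the sample labels: 7 of 7 tested hepatocyte genes were lower in inflammatory cells than in liver, and 6 of 6 T cell genes and 7 of 7 B cell genes were higher. Of all genes 48.9% were higher and 35.4% lower. Cd4 was above background on no liver array and Hnf4a on no inflammatory cell array, which fixed their direction. Other lists were mixed, with 3 higher and 1 lower of 8 monocyte and macrophage genes, and 4 higher and 2 lower of 8 Kupffer cell genes. Transcripts of the exocrine pancreas were abundant on 3 inflammatory cell arrays, ADSC 10, PBS 11 and PBS 13, where the mean of 8 such genes was 8.52, 6.38 and 8.26. On the other 5 inflammatory cell arrays it lay between -1.72 and 2.39.

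**Figure D1:**
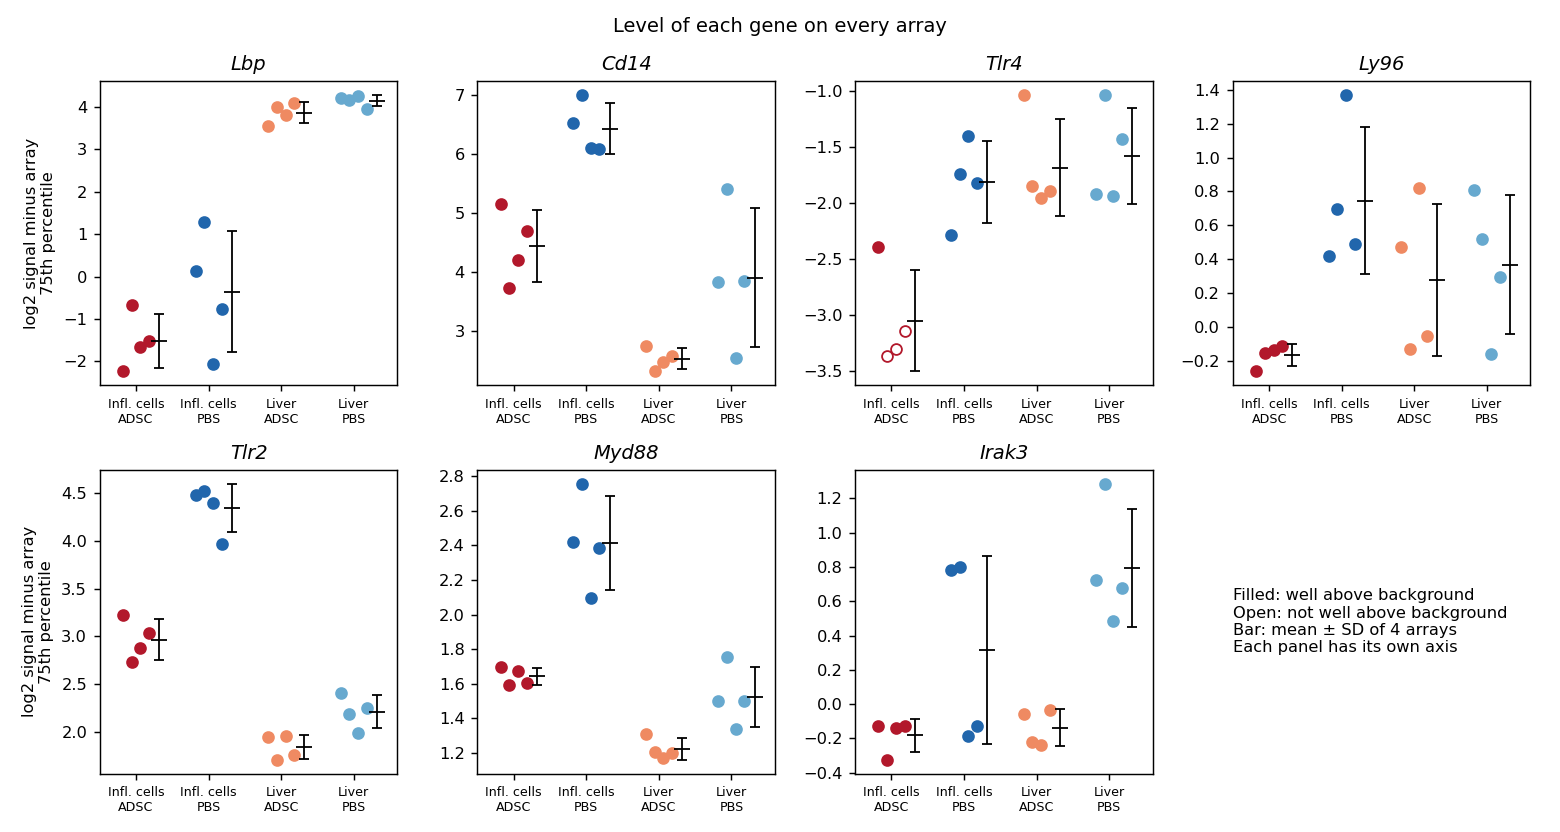
Level of each of the 7 genes on every array, as log2 processed signal minus the array's 75th percentile, with a separate axis per gene. Points are arrays, bars are mean ± SD of 4 arrays, and open points are arrays where the probe was not well above background, which are 3 of the 4 ADSC inflammatory cell arrays for Tlr4.

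The first comparison asked whether LPS sensing genes differed in inflammatory cells after ADSC. Cd14 and Tlr2 fell, 3.96-fold and 2.59-fold. All 7 genes had a negative difference, from -1.98 for Cd14 to -0.50 for Irak3 on the log2 scale, with a median of -1.16 where the median over all 20165 genes tested was 0.03. In limma with Benjamini-Hochberg adjustment over all genes, 2 of 7 passed as lower and 0 as higher, against 1.05% and 0.134% of all genes. At an unadjusted p under 0.05, 5 of 7 were lower, against 9.02% of all genes. Tlr4 is 1 of these 5, but it met the filter through the PBS arrays. A negative estimate was found for 47% of all genes.

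Lbp carries LPS in plasma, and hepatocytes are its main source. In inflammatory cells it measured -2.23, -0.67, -1.66 and -1.51 on ADSC 7 to 10, against 0.13, 1.30, -2.07 and -0.77 on PBS 11 to 14. The groups overlapped, with PBS 13 among the lowest of the 8 and PBS 12 the highest. The difference was -1.16 ± 0.61 (SE, n = 4 each, adjusted p = 0.328 in limma). For Lbp it was -0.61 without PBS 12 and -2.16 with slide as a fixed block. Within batches Lbp differed by -0.79 on slide 2, -3.53 on slide 3, -2.16 on scan day 2 and 0.48 on scan day 3.

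Cd14 presents LPS to Tlr4. In inflammatory cells its level was 5.15, 3.73, 4.20 and 4.70 on ADSC 7 to 10, against 6.53, 7.00, 6.10 and 6.09 on PBS 11 to 14. Every ADSC array lay below every PBS array, with ADSC 8 the lowest. The log2 difference was -1.98 ± 0.33 (SE, n = 4 each), with a 95% interval of -2.72 to -1.25 and an adjusted p of 0.0202 in limma.

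Tlr4, the LPS receptor itself, was often near background: its probe was well above it on 1 of 4 ADSC and 4 of 4 PBS inflammatory cell arrays. Its level was -2.39, -3.37, -3.30 and -3.14 on ADSC 7 to 10, against -2.29, -1.74, -1.40 and -1.82 on PBS 11 to 14. The groups did not overlap, though ADSC 7 and PBS 11 were close. The difference of -1.24 ± 0.28 (SE, n = 4 each) missed the threshold (adjusted p = 0.0686 in limma), and its size depended on background treatment, at -0.21 with normexp correction before the 75th percentile.

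Ly96 binds LPS beside Tlr4. It lay in a narrow range of -0.26, -0.15, -0.14 and -0.11 on ADSC 7 to 10, against 0.42, 0.70, 1.37 and 0.49 on PBS 11 to 14. The groups were apart, with PBS 13 far above the other PBS arrays. The difference was -0.91 ± 0.24 (SE, n = 4 each, adjusted p = 0.115 in limma).

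Tlr2, whose promoter holds the kappaB match shown above, measured 3.22, 2.73, 2.88 and 3.04 on ADSC 7 to 10, against 4.48, 4.52, 4.40 and 3.97 on PBS 11 to 14. The highest ADSC array was 7 and the lowest PBS array was 14, and they were well separated. The difference was -1.37 ± 0.22 (SE, n = 4 each), with a 95% interval of -1.86 to -0.89 and an adjusted p of 0.0171 in limma.

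Myd88 is the adaptor that both receptors use. Its level was 1.70, 1.60, 1.67 and 1.61 on ADSC 7 to 10, against 2.42, 2.76, 2.09 and 2.38 on PBS 11 to 14. The ADSC arrays were within a narrow band below all PBS arrays. The difference of -0.77 ± 0.21 (SE, n = 4 each) did not pass (adjusted p = 0.117 in limma).

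Irak3, the inhibitor, split the PBS arrays. It was at -0.13, -0.33, -0.14 and -0.13 on ADSC 7 to 10, against 0.78, 0.80, -0.19 and -0.13 on PBS 11 to 14, so that PBS 13 lay among the ADSC arrays and PBS 14 level with the highest of them. The difference was -0.50 ± 0.28 (SE, n = 4 each, adjusted p = 0.349 in limma). Its other probes gave -0.49 and -0.21.

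Counted over the members, 5 of 7 (all but Lbp and Irak3) had every ADSC array below every PBS array, and this held for 6.65% of all genes. Tlr4 is 1 of the 5. Its probe was well above background on 1 of 4 ADSC arrays and met the filter through the 4 PBS arrays, so its place in this count is no separate support. The calls of Cd14 and Tlr2 were lost when some arrays were left out: neither passed without PBS 12 (Cd14 -1.79, Tlr2 -1.31), without ADSC 9 (-1.90 and -1.34) or without ADSC 10 (-2.07 and -1.40). The calls over all genes fell there as well, from 239 to 76, 67 and 86. Neither passed without the 3 pancreas-rich arrays (-2.19 and -1.30) or with slide as a fixed block (-2.32 and -1.53), and every member tested kept a negative estimate in each of these. Tlr4 was not tested without the pancreas-rich arrays. Without ADSC 7, Tlr4 passed as well (adjusted p = 0.0259 in limma), but its probe was then not well above background on any ADSC array, so its size there is not measured. Within slides that held 1 array of each treatment, ADSC minus PBS was -2.79 on slide 2 and -1.85 on slide 3 for Cd14, and -1.75 and -1.30 for Tlr2. Within scan days, Cd14 was at -2.32 on day 2 (2 against 2 arrays) and -1.65 on day 3 (2 ADSC against 1 PBS), and Tlr2 at -1.53 and -1.44. With scan day as a term Cd14 did not pass (-2.05, adjusted p = 0.0582 in limma), while Tlr2 did. Cd14 also missed the threshold with quantile normalization (0.0565), with normexp and quantile (0.0506) and with no filter on dim probes (0.0523), where Tlr2 passed.

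**Figure D2:**
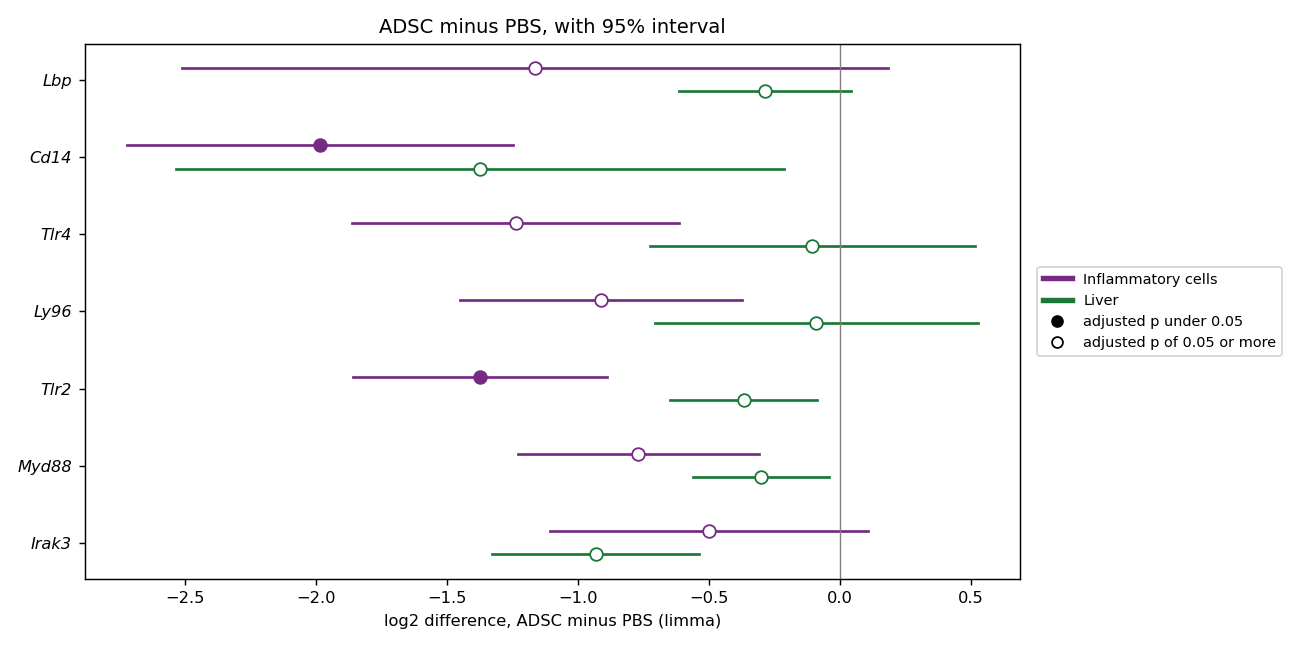
Log2 difference of ADSC minus PBS for each gene in inflammatory cells and in liver, from limma, with 95% intervals (4 arrays a group). Filled points passed an adjusted p of 0.05, which Cd14 and Tlr2 did in inflammatory cells and no gene did in liver.

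Neutrophil transcripts moved with these genes. The mean of 14 neutrophil markers was 1.52 ± 0.32 in ADSC and 4.95 ± 0.85 in PBS inflammatory cells (SD, n = 4 each), with ranges of 1.15 to 1.87 and 4.11 to 5.99. Of these 14, 11 fell, where 1.05% of all genes fell. All 14 markers were above background on every PBS inflammatory cell array, and 13 or 14 on the ADSC arrays. The marker missing there was Elane, well above background on 1 of 4 ADSC and 4 of 4 PBS arrays, which met the filter through the PBS arrays. The mean of 8 monocyte and macrophage markers was 1.94 ± 0.21 in ADSC and 2.89 ± 0.08 in PBS cells (1 of 8 fell, 8 of 8 above background on every array), with ranges of 1.62 to 2.08 and 2.78 to 2.96. For 8 Kupffer cell markers, of resident liver macrophages, it was 0.66 ± 0.65 in ADSC and 2.20 ± 0.61 in PBS cells (2 of 8 fell, 8 of 8 above background), with ranges of -0.13 to 1.30 and 1.48 to 2.86. B cell markers differed the other way, with a mean of 1.86 ± 0.33 in ADSC and 0.62 ± 0.52 in PBS cells, ranges of 1.37 to 2.05 and -0.13 to 1.05, and 0 of 7 tested passing. The part of these cell types in the fall of Cd14 and Tlr2 was not tested. Among the PBS inflammatory cell arrays, the order of Cd14 (12, 11, 13, 14) was also that of the neutrophil mean, while among the ADSC arrays the neutrophil mean was highest on ADSC 8, where Cd14 was lowest.

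**Figure D3:**
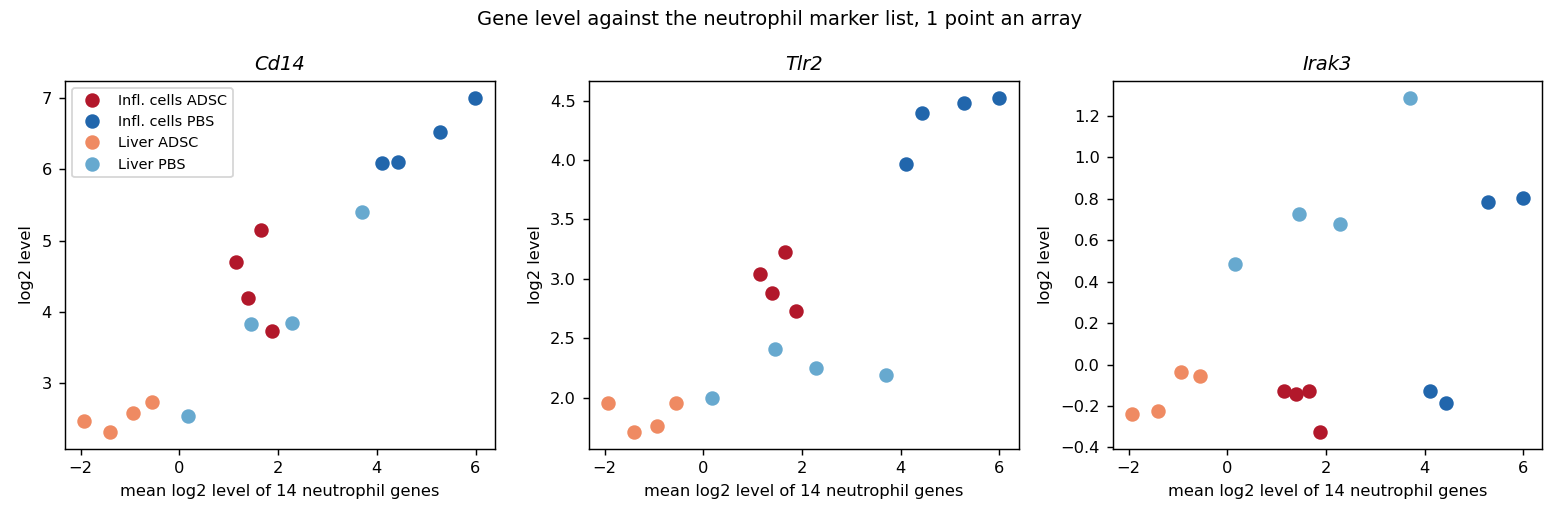
Level of Cd14, Tlr2 and Irak3 against the mean log2 level of 14 neutrophil markers, 1 point an array, coloured by the 4 groups. The ADSC inflammatory cells sit at neutrophil means of 1.15 to 1.87 and the PBS inflammatory cells at 4.11 to 5.99, and ADSC livers at -1.93 to -0.55 and PBS livers at 0.17 to 3.71.

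In whole liver the same question gave no call. All 7 differences were again negative, with a median of -0.30, where the median over 17321 genes was 0.04 and 39.8% of genes had a negative estimate. Of the 7, 0 passed in limma, as did 0% of all genes, while 4 members and 803 genes (4.64%) had an unadjusted p under 0.05. Tlr2, Myd88 and Irak3 had every ADSC array below every PBS array, which 1.21% of genes had. PBS livers 11, 12 and 14 were scanned on day 3, which held no ADSC liver. ADSC livers 8 and 10 were scanned on day 1, which held no PBS liver. For these arrays treatment and scan day cannot be told apart.

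Irak3 had the smallest p of the members in liver. It measured -0.06, -0.22, -0.24 and -0.04 on ADSC 7 to 10, against 0.72, 1.29, 0.49 and 0.68 on PBS 11 to 14. The groups were apart, with PBS 12 the highest. The difference was -0.93 ± 0.17 (SE, n = 4 each), with a 95% interval of -1.33 to -0.54, but an adjusted p of 0.559 in limma. Its other probes gave -0.83 and -0.67.

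Cd14 differed more in size but also varied more. Its level in liver was 2.74, 2.32, 2.47 and 2.58 on ADSC 7 to 10, against 3.83, 5.40, 2.53 and 3.84 on PBS 11 to 14. PBS 13 lay among the ADSC arrays and PBS 12 far above the rest. The difference was -1.37 ± 0.51 (SE, n = 4 each, adjusted p = 0.998 in limma), and it was -0.87 without PBS 12. On slide 2, which held ADSC 7 and PBS 13, Cd14 was 0.21 higher after ADSC, and on scan day 2 (2 ADSC against 1 PBS array) it was 0.07 higher. Those batches hold only PBS 13 of the PBS livers.

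Tlr2 in liver was at 1.95, 1.71, 1.96 and 1.76 on ADSC 7 to 10, against 2.41, 2.19, 2.00 and 2.25 on PBS 11 to 14. The groups met almost edge to edge at ADSC 9 and PBS 13. The difference was -0.37 ± 0.12 (SE, n = 4 each, adjusted p = 0.998 in limma), and on slide 2 and scan day 2 it was -0.04.

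Myd88 in liver was at 1.31, 1.21, 1.17 and 1.20 on ADSC 7 to 10, against 1.502, 1.75, 1.34 and 1.498 on PBS 11 to 14. The ADSC arrays again formed a narrow band below all PBS arrays, with PBS 13 nearest to it. The difference was -0.30 ± 0.11 (SE, n = 4 each, adjusted p = 0.998 in limma), and it was -0.03 on slide 2 and -0.10 on scan day 2.

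The other 3 members showed overlapping groups in liver. Lbp, at its hepatocyte source, was at 3.56, 4.01, 3.81 and 4.10 on ADSC 7 to 10, against 4.22, 4.17, 4.27 and 3.96 on PBS 11 to 14, a difference of -0.29 ± 0.14 (SE, n = 4 each, adjusted p = 0.998 in limma). ADSC 7 was the lowest of the 8. Lbp is itself an acute phase protein, and the mean of 14 acute phase genes was 5.93 ± 0.10 in ADSC and 6.27 ± 0.21 in PBS livers (SD, n = 4 each), of which 0 passed. Tlr4 was at -1.04, -1.85, -1.96 and -1.89 in ADSC livers and at -1.92, -1.03, -1.93 and -1.43 in PBS livers. Ly96 was at 0.47, -0.13, 0.82 and -0.05 in ADSC livers and at 0.81, 0.52, -0.16 and 0.30 in PBS livers. The differences were -0.10 (95% interval -0.72 to 0.52) for Tlr4 and -0.09 (-0.71 to 0.53) for Ly96, in limma.

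In liver the mean of the neutrophil markers was -1.21 ± 0.59 in ADSC and 1.90 ± 1.48 in PBS livers (SD, n = 4 each). Of the 13 tested there, 0 passed. Among the PBS livers, 12 had the highest and 13 the lowest neutrophil mean (3.71 and 0.17), as it did for Cd14 and Irak3. Between 10 and 12 of 14 neutrophil markers were above background on the ADSC livers, and 13 or 14 on the PBS livers. The part of these cells in the liver values was not tested.

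The difference between the ADSC effects, inflammatory cells minus liver, was tested in 1 fit of all 16 arrays. Of the 7 members 0 passed, as did 0.0316% of 22139 genes, and 3 had an unadjusted p under 0.05, as did 10.1% of genes. Tlr2 had the smallest p, with a difference of effects of -1.01 ± 0.24 (SE, adjusted p = 0.157 in limma). The values were -1.13 for Tlr4, -0.82 for Ly96, -0.88 for Lbp, -0.61 for Cd14 and -0.47 for Myd88. Tlr4 is 1 of the 3 with an unadjusted p under 0.05. Its probe was well above background on 1 of 4 ADSC inflammatory cell arrays, so its size is partly unmeasured. Under alternative fits and processing the Tlr4 value ranged from -1.62 to -0.19. Irak3 was the 1 member with a positive value, 0.43 (95% interval -0.28 to 1.15). For 0 of the 7 genes was the effect shown to differ between inflammatory cells and liver.

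Inflammatory cells were then set against liver, to show where each gene was expressed. Lbp was 30.9-fold lower in inflammatory cells (-4.95 ± 0.36, SE, adjusted p = 2.33e-09 in limma). Cd14 was 4.67-fold higher (2.22 ± 0.32, adjusted p = 7.94e-06), Tlr2 3.09-fold higher (1.63 ± 0.12, adjusted p = 3.01e-09) and Myd88 1.57-fold higher (0.65 ± 0.11, adjusted p = 4.49e-05). Tlr4 was 1.74-fold lower (-0.80 ± 0.20, adjusted p = 0.00178), a call that was lost with the 75th percentile taken over probes above background on all arrays (-0.45) and with normexp correction before the 75th percentile (-0.15). Ly96 (-0.03) and Irak3 (-0.26) did not pass, and both were positive under the percentile over detected probes (0.31 and 0.09). The other Irak3 probes gave 0.11 and -0.54, so its sign depended on the probe. Of all genes 84.3% passed, 48.9% as higher and 35.4% as lower, so a call in this comparison is common, and the median over all genes was 0.35. It was 0.13 with normexp and quantile normalization and 0.70 with the percentile over detected probes. Among genes above background on every array it was -0.10, and there 4841 were called higher and 5598 lower.

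Lbp, Cd14, Tlr2 and Myd88 passed within each treatment. Lbp differed by -5.39 ± 0.51 in ADSC mice and -4.51 ± 0.51 in PBS mice (SE, 4 arrays a group, limma), with no overlap in either. Cd14 differed by 1.92 ± 0.45 in ADSC mice and 2.53 ± 0.45 in PBS mice. For Tlr2 the values were 1.12 ± 0.17 in ADSC mice and 2.13 ± 0.17 in PBS mice. Myd88 differed by 0.42 ± 0.16 in ADSC mice and 0.89 ± 0.16 in PBS mice, and its call in ADSC mice was lost with slide as a fixed block (0.42, adjusted p = 0.0835), with scan day as a term (0.43, 0.0699), without liver ADSC 9 (0.40, 0.0519) and with normexp correction before the 75th percentile (0.27, 0.143). Tlr4 differed by -1.37 ± 0.29 in ADSC mice, a call, and by -0.23 ± 0.29 in PBS mice, which was none. With normexp before the 75th percentile the value in ADSC mice was -0.25 (adjusted p = 0.184). The Tlr4 call in ADSC mice rests on arrays where its probe was mostly not well above background. In all, 5 of 7 members passed in ADSC mice, where 78.5% of genes did, and 4 of 7 in PBS mice, where 75.9% did. These contrasts use the same arrays as the ADSC comparisons.

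**Figure D4:**
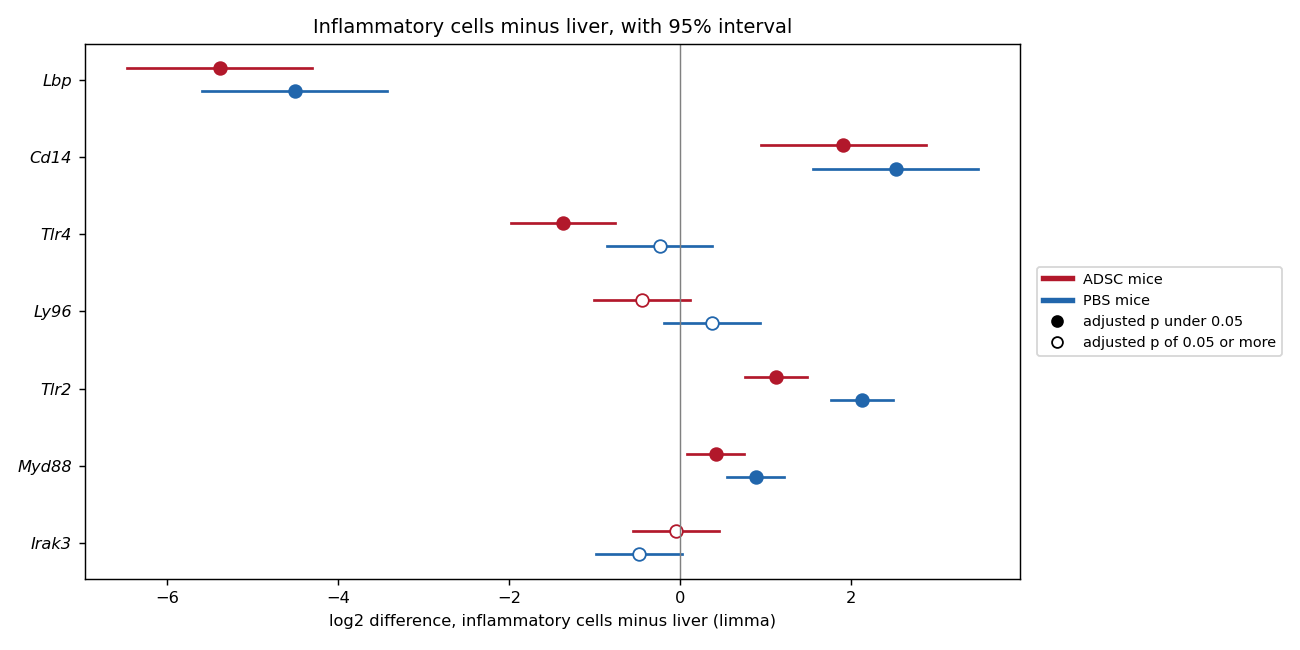
Log2 difference of inflammatory cells minus liver for each gene in ADSC and in PBS mice, from limma, with 95% intervals (4 arrays a group). Lbp lies near -5 in both, Cd14, Tlr2 and Myd88 lie above 0 in both, and filled points passed an adjusted p of 0.05.

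The level of Cd14 was 4.45 ± 0.61 in ADSC and 6.43 ± 0.43 in PBS inflammatory cells, and 2.53 ± 0.18 in ADSC and 3.90 ± 1.17 in PBS liver (SD, n = 4 each). By level the order was PBS inflammatory cells, ADSC inflammatory cells, PBS liver and ADSC liver. ADSC inflammatory cells and PBS liver overlapped, as did the livers. Tlr2 had the same order, at 2.97 ± 0.21 in ADSC and 4.34 ± 0.26 in PBS inflammatory cells and at 1.84 ± 0.13 in ADSC and 2.21 ± 0.17 in PBS liver, and no neighbours overlapped. Myd88 had it too, at 1.64 ± 0.05 in ADSC and 2.41 ± 0.27 in PBS inflammatory cells and at 1.22 ± 0.06 in ADSC and 1.52 ± 0.17 in PBS liver. There, ADSC inflammatory cells overlapped with PBS liver.

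The remaining members had other orders. Lbp was at -1.52 ± 0.65 in ADSC and -0.35 ± 1.42 in PBS inflammatory cells, which overlapped, and at 3.87 ± 0.24 in ADSC and 4.16 ± 0.13 in PBS liver, which overlapped as well. Irak3 was at -0.18 ± 0.10 in ADSC and 0.32 ± 0.55 in PBS inflammatory cells, and at -0.14 ± 0.11 in ADSC and 0.79 ± 0.34 in PBS liver. Its order was PBS liver, PBS inflammatory cells, ADSC liver and ADSC inflammatory cells, with each pair of neighbours overlapping. Ly96 was at -0.17 ± 0.07 in ADSC and 0.74 ± 0.43 in PBS inflammatory cells, the lowest and the highest group. The livers lay between them with 0.28 ± 0.45 after ADSC and 0.37 ± 0.41 after PBS, and neighbours overlapped. Tlr4 was lowest in ADSC inflammatory cells, at -3.05 ± 0.45, against -1.81 ± 0.37 in PBS inflammatory cells. The livers, at -1.68 ± 0.43 after ADSC and -1.58 ± 0.43 after PBS, overlapped with each other and with PBS inflammatory cells.

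The wider pathway was described with 6 lists of 95 genes, of which 88 had a probe. In inflammatory cells, 4 of 82 tested genes fell after ADSC and 0 rose, and the median difference was -0.19. Over all genes 1.05% fell and 0.134% rose, with a median of 0.03. Of 18 genes that LPS induces, 1 fell, Il1b, an inflammatory cytokine, 3.81-fold lower (-1.93 ± 0.35, SE, n = 4 each, adjusted p = 0.0261 in limma). Cxcl2, a neutrophil-attracting chemokine, and Ptgs2, a prostaglandin synthase, were at -1.54 (adjusted p = 0.0721) and -1.37 (0.0774), and the list median was -0.61. Among 10 other genes of LPS binding and disposal, 2 fell: Trem1, a receptor that amplifies inflammation on neutrophils and monocytes (7.31-fold, -2.87 ± 0.39, adjusted p = 0.0085), and Aoah, an enzyme that detoxifies LPS (2.40-fold, -1.26 ± 0.23, adjusted p = 0.0277). Of 11 transcription factors 1 fell, Cebpb, an activator of inflammatory genes in myeloid cells (2.40-fold, -1.26 ± 0.25, adjusted p = 0.0373), while the list median was 0.01. Without the 3 pancreas-rich arrays 0 of these 4 passed, as did 0 genes in all. Trem1 passed without PBS 12, ADSC 9 or ADSC 10, while Il1b, Aoah and Cebpb did not.

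Signalling parts between receptor and nucleus showed no call in inflammatory cells. Of 10 other Toll-like receptors and co-receptors 0 passed (median -0.15), with Tlr6, a partner of Tlr2, at -1.13 (adjusted p = 0.159 in limma). Of 18 adaptors and kinases 0 passed (median -0.09), with Irak4, the kinase recruited by Myd88, at -0.49 and Ube2n at -0.45. Of 15 negative regulators 0 passed (median -0.19): Dusp1, a phosphatase of stress kinases, was at -0.77, and Cyld, a deubiquitinase, at 0.73. At an unadjusted p under 0.05, where 9.02% of all genes were lower, there were 7 lower LPS-induced genes of 18, 4 lower and 1 higher in LPS binding and disposal, and at most 1 in each direction in the other lists.

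**Figure D5:**
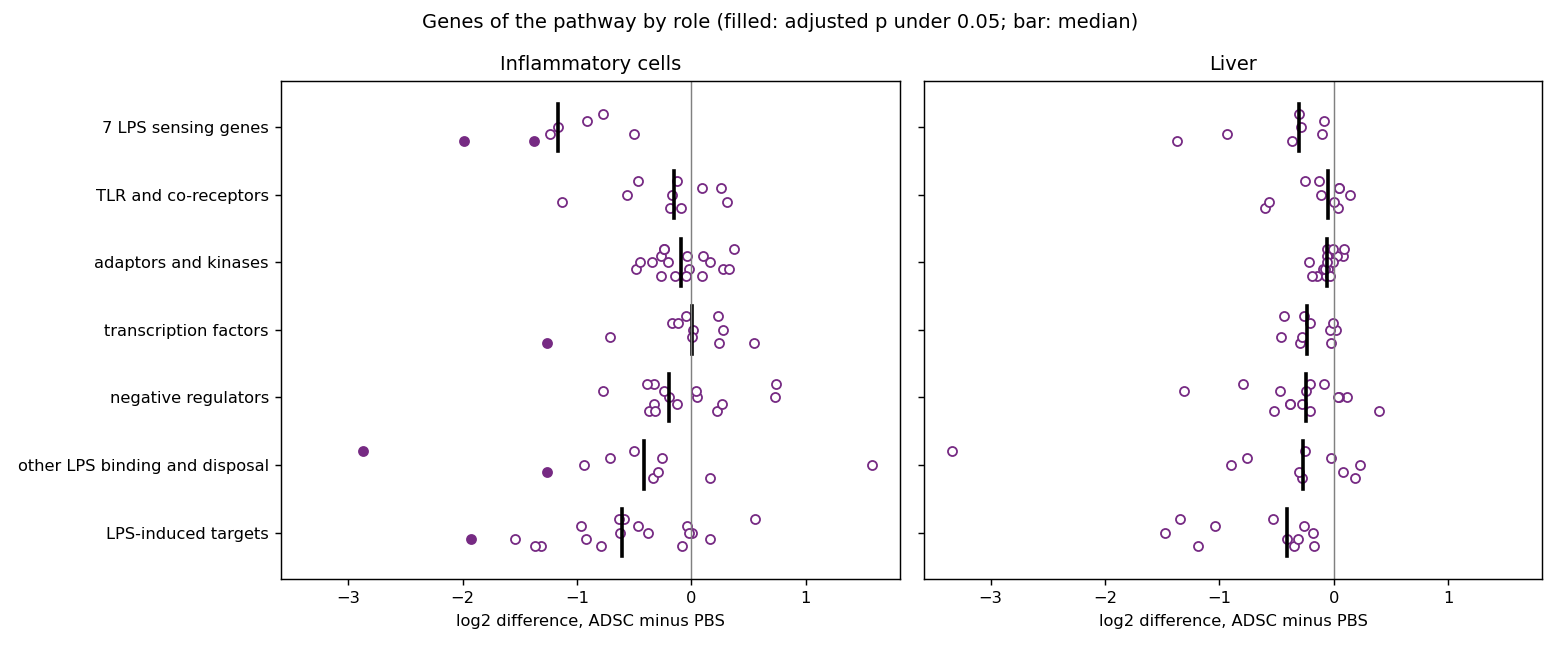
Log2 difference of ADSC minus PBS for the 7 members and 6 pathway lists in inflammatory cells and in liver, 1 point a gene and a bar at each median. Filled points passed an adjusted p of 0.05 and are Cd14, Tlr2, Il1b, Trem1, Aoah and Cebpb in inflammatory cells, with none in liver.

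In liver 0 of 74 pathway genes passed (median -0.18). The 11 measured LPS-induced genes all had a negative difference (median -0.41), as did 39.8% of all genes, and 6 had an unadjusted p under 0.05, as did 4.64% of all genes in either direction. Cxcl1, a neutrophil-attracting chemokine, was at -1.35 ± 0.24 and Nfkbiz, a nuclear NF-kappaB cofactor, at -1.04 ± 0.21 (SE, n = 4 each, adjusted p = 0.559 and 0.573 in limma), with groups apart in both. Among negative regulators, Zc3h12a, an RNase that degrades cytokine transcripts, was at -1.31 (adjusted p = 0.731 in limma). Its probe was well above background on 1 of 4 ADSC livers and 4 of 4 PBS livers. It met the filter through the PBS livers, and its size is partly unmeasured. Trem1 was not well above background on any ADSC liver and was tested through the PBS livers alone. Its measured difference of -3.34 (adjusted p = 0.268 in limma) thus rests on unmeasured ADSC levels. With ADSC livers raised to the lowest signal above background on each array, it was 4.14-fold lower there than in PBS liver. Casp4, an intracellular sensor of LPS, was at -0.76 (adjusted p = 0.965).

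Between sample types, 50 of 84 pathway genes were higher and 19 lower in inflammatory cells than in liver, beside 48.9% higher and 35.4% lower of all genes. Of 18 LPS-induced genes 15 were higher (median 4.85) and 0 lower. Among them Ptgs2, Ifnb1, Il10 and Il6, and Il1rl1 among the negative regulators, were well above background on no liver array. These entered the fit through inflammatory cells alone, so their direction was fixed by the filter. The medians of both lists include their unmeasured liver values. Negative regulators had 11 higher and 3 lower of 16 (median 2.75), transcription factors 8 higher and 2 lower of 11 (median 1.23), and adaptors and kinases 6 higher and 6 lower of 18 (median -0.19). Markers of cell isolation stress were also higher in inflammatory cells, though 4 of these 8 genes (Atf3, Dusp1, Fos and Jun) are on the pathway lists as well. Their mean was 5.73 ± 0.45 in ADSC inflammatory cells and 5.86 ± 0.62 in PBS inflammatory cells, and 0.00 ± 0.05 in ADSC and 0.16 ± 0.35 in PBS livers (SD, n = 4 each). Their part in the difference between sample types was not tested.

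The genes most like each member were taken by Pearson's r over the 16 arrays, after the mean of each sample type was subtracted, among 9039 or 9040 genes above background on all arrays. These values describe arrays that share treatment and cell makeup. Cd14 was most like Retnlg (r = 0.96), Emilin2 and Hdc (0.95 each), and Tlr2 most like Glrx (0.97), Ifitm2 and Rnf130 (0.95 each). Myd88 was closest to Slc16a3, Lrrc25 (0.96 each) and Ltb4r1 (0.94), and Irak3 to Nfkbiz, Slc2a3 (0.93 each) and Dok3 (0.92). Lbp was closest to Flot2 (0.95), Lrg1 (0.94) and Mfsd13a (0.93), Tlr4 to Evi2a (0.97), Tmem165 (0.96) and Tpd52 (0.95), and Ly96 to Pigu (0.94), Ccdc12 (0.93) and Scnm1 (0.92). Retnlg is one of the 14 neutrophil markers.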

How the data were processed

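RNA of 16 samples was hybridised to one-colour Agilent arrays labelled with Cy3. The deposited scanner files hold a processed signal intensity made by Feature Extraction 10.5.1.1, per the file headers, with no normalization between arrays. The deposited value table held identical intensities. Signals of inflammatory cell array ADSC 9 were deposited with 3 significant digits, which moves a level by at most 0.0072 on the log2 scale and ties Ly96 with Irak3 there. Log2 signal had each array's 75th percentile over non-control spots subtracted. Outlier spots (71 to 124 per array) were left out, spots of a probe averaged, and the brightest probe taken per gene. Symbols came from RefSeq accessions through the GRCm38.p6 table (23374 of 41174 probes). A gene entered a fit if 4 or more of its arrays were well above background, and was tested with limma 3.58.1 in R 4.3.3 (lmFit, eBayes), adjusted by Benjamini-Hochberg over all genes, with a threshold of 0.05. ADSC was compared with PBS within each sample type. Other contrasts used 1 fit of 16 arrays. The scripts were tested on simulated data. The number of arrays limits the precision. Members and lists were chosen with earlier results of these data known. The text names the 7 members, the 3 genes of smallest p and any passing gene of each pathway list (a selection of these), and the 3 genes most like each member.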

Additional observations from a re-analysis of the deposited data

Results flagged for a closer look

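In 28 sets of 4 arrays (7 genes in 4 groups), 2 had an array set apart relative to the range of its group. Irak3 in ADSC inflammatory cells had ADSC 8 at -0.33, and the gap to its neighbour took up 0.939 of the group's range. The range was narrow, with the other arrays between -0.14 and -0.13. Tlr4 in ADSC liver had ADSC 7 at -1.04, with a gap of 0.881 of the range. Both exceed Dixon's limit for 4 samples, which chance exceeds in about 1 of 20 sets.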

How the results depend on the processing

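In inflammatory cells the 2 member calls after ADSC became 1 with normexp and quantile normalization, quantile normalization, no filter on dim probes or scan day as a term, where Cd14 was the gene lost. They became 0 with slide as a fixed block or without the 3 pancreas-rich arrays, 4 with slide as a random block or all 16 arrays in 1 fit, and 6 with array weights. Leaving out 1 array gave 0 to 3. Tlr4 was among the calls with a random slide block, in the fit of 16 arrays, with array weights and without ADSC 7. Its probe was well above background on 1 of 4 ADSC and 4 of 4 PBS inflammatory cell arrays, so these Tlr4 calls are no separate support. Every member estimate in inflammatory cells was negative under every alternative that gave one, with Cd14 from -2.32 to -1.52 and Tlr2 from -1.53 to -1.16. Over all genes the 239 calls became 143 with the percentile over detected probes, 110 with no filter, 155 with scan day, 819 with a random slide block, 914 in the fit of 16 arrays, 4549 with array weights, and 0 with a fixed slide block or without pancreas-rich arrays, with 67 to 506 when 1 array was left out. With the percentile over detected probes the all-gene median shifted by 0.15.

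In liver and for the difference of effects, array weights gave 1 member call each, Irak3 (adjusted p = 0.05 after rounding) and Tlr2 (0.0163), and leaving out 1 array gave 0. Over all genes in liver, the 0 calls became 34 with array weights, 9 in the fit of 16 arrays and 1 with the mean of probes. For the difference of effects, the 7 calls ranged from 0 to 918. Liver estimates of Cd14, Tlr4 and Ly96 were positive, uncalled, with slide as a fixed block (0.21, 0.90 and 0.64) and with scan day as a term (0.07, 0.44 and 0.81), fits that rest on PBS 13 alone among PBS livers; the cause was not tested. For inflammatory cells against liver, 4 or 5 members passed under each alternative, and 18674 genes became 10439 when every array had to be above background, which tests fewer genes. In ADSC mice 3 members passed in place of 5 with normexp before the 75th percentile. Same-numbered samples correlated at -0.04 to 0.15, with their own number best for 3 of 8. Liver and inflammatory cells of 1 animal need not correlate, so these values cannot tell whether a shared number marks 1 animal. With the replicate block 5 members still passed for inflammatory cells against liver and 0 for the difference of effects, where all genes gave 0 calls against 7, and in PBS mice 5 against 4. Signal near background limits Tlr4 above all.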
